A study of Mus musculus with 8 samples.

Results

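The genes described here buffer and move ATP in muscle: the creatine kinases Ckm, Ckmt2 and Ckb, the adenylate kinases Ak1 and Ak4, the AMP deaminases Ampd1 and Ampd3, and the adenine nucleotide translocators Slc25a4 and Slc25a5. They were chosen by name as a pathway group, and their probes were found by matching the transcript record of each array probe to a RefSeq gene symbol. The 9 genes had 11 of the 55681 probes of the array. Of these 11 probes, 9 probes of 8 genes were among the 23098 probes bright enough to be tested, the condition being a signal well above background in at least 4 of 8 animals.

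The RNA came from white gastrocnemius, a calf muscle made mostly of fast fibres, taken from mice aged 14 to 16 weeks. The mutants (4 animals) were homozygous for a mutation of Pus1, which encodes a pseudouridine synthase acting on tRNA, and the controls (4 animals) carried wild type Pus1. All 8 animals were on C57BL/6J after 5 generations of backcrossing, and which part of Pus1 is altered is not stated in the labels. None of the member genes lies on chromosome 5, where Pus1 lies. Each of 4 two-colour arrays paired a mutant with a wild type of its sex, with the mutant in Cy5 in pairs 1 and 3 and in Cy3 in pairs 2 and 4. Pairs 1 and 2 were male and pairs 3 and 4 female.

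Contracting muscle uses ATP faster than mitochondria can replace it within moments, and creatine kinase refills the pool by passing a phosphate from phosphocreatine to ADP. Adenylate kinase turns pairs of ADP into ATP and AMP, and AMP deaminase removes the AMP as IMP, which keeps the adenylate kinase reaction running. The translocators in the inner mitochondrial membrane exchange ATP made inside for ADP from the cytosol. Fast white fibres are known for high activity of the cytosolic enzymes of this group.

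Defining markers of skeletal muscle (Acta1, Des, Ttn, Neb, Ryr1, Cacna1s, Tcap and Myot) were well above background in 8 of 8 animals. Ddx3y and Eif2s3y, genes of the Y chromosome, were well above background in 4 of 4 males and 0 of 4 females, as the labels have it. Other sex genes checked were dimmer. Kdm5d was well above background in 0 of 4 males, and Uty in 1 of 4 by 1 probe and 0 of 4 by another. The tested probe of Xist, a female-expressed gene, was so in 4 of 4 females and 1 of 4 males. Male and female levels of these probes did not overlap. Pus1 was well above background in 0 of 4 mutants and 4 of 4 wild types, with log2 levels of at most 6.91 in mutants and at least 8.05 in wild types (limma adjusted p = 0.0786). The share of spots well above background ran from 38.0% to 46.5% over the 8 animals. Values below are log2 levels after normalization within and between arrays, with the mean Cy5 to Cy3 difference of each probe removed. Levels of different probes are on separate scales, so only levels of 1 probe are compared. In whole muscle, fewer cells of a type and less RNA per cell cannot be told apart.

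Upstream sequences are shown for the muscle creatine kinases and for Ak4, the member that differed between the sexes. They are the 250 bases before the most upstream annotated start of each gene, from RefSeq in build GRCm38.p6, 5′ to 3′ on the gene's strand. Ckm is at chr7:19410844-19411093 (+ strand), Ckmt2 at chr13:91876886-91877135 (- strand) and Ak4 at chr4:101419039-101419288 (+ strand). Capitals mark E-boxes, CANNTG on both strands, the motif that myogenic bHLH factors bind.
Ckm: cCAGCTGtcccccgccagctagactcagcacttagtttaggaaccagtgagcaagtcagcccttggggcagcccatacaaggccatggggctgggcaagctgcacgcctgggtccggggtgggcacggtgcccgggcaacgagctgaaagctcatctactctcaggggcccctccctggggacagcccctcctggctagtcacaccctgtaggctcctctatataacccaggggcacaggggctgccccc
Ckmt2: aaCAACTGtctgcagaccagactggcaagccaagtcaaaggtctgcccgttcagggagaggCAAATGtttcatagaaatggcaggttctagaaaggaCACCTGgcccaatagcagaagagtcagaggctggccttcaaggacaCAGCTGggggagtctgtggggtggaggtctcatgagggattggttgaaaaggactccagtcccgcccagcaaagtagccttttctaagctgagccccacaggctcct
Ak4: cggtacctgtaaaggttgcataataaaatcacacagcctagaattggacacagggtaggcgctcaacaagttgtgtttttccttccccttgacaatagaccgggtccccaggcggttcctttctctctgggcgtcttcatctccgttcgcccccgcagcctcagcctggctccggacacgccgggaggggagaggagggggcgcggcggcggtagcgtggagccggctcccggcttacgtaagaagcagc
The Ckmt2 window held 4 E-boxes, the Ckm window 1 and the Ak4 window 0, and 66.0% of 27025 gene promoters of the same length held at least 1. Ak4 has 4 annotated starts, and the window before 1 of them, the most downstream, held an E-box. These matches describe letters in a window and not binding.

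The first question was whether any of these genes differs between mutants and wild types. In limma, 0 of the 9 member probes had an adjusted p under 0.05 and 0 of 9 had an unadjusted p under 0.05. Over all 23098 probes the shares were 0% and 3.35%. Without pair 1, 2 of the 9 had an unadjusted p under 0.05 (Ckm and Ckmt2), as had 2042 of the 23098 probes, and 0 of 9 passed. The median log2 ratio, mutant over wild type, was 0.0032 over the 8 genes (4 higher, 4 lower) and 0.00127 over all tested probes. In the levels of all 9 probes the mutant and wild type animals overlapped, whereas 2.04% of all tested probes had groups that did not. With 4 pairs an exact permutation test over pairs could not go below p = 0.125.

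**Figure D1:**
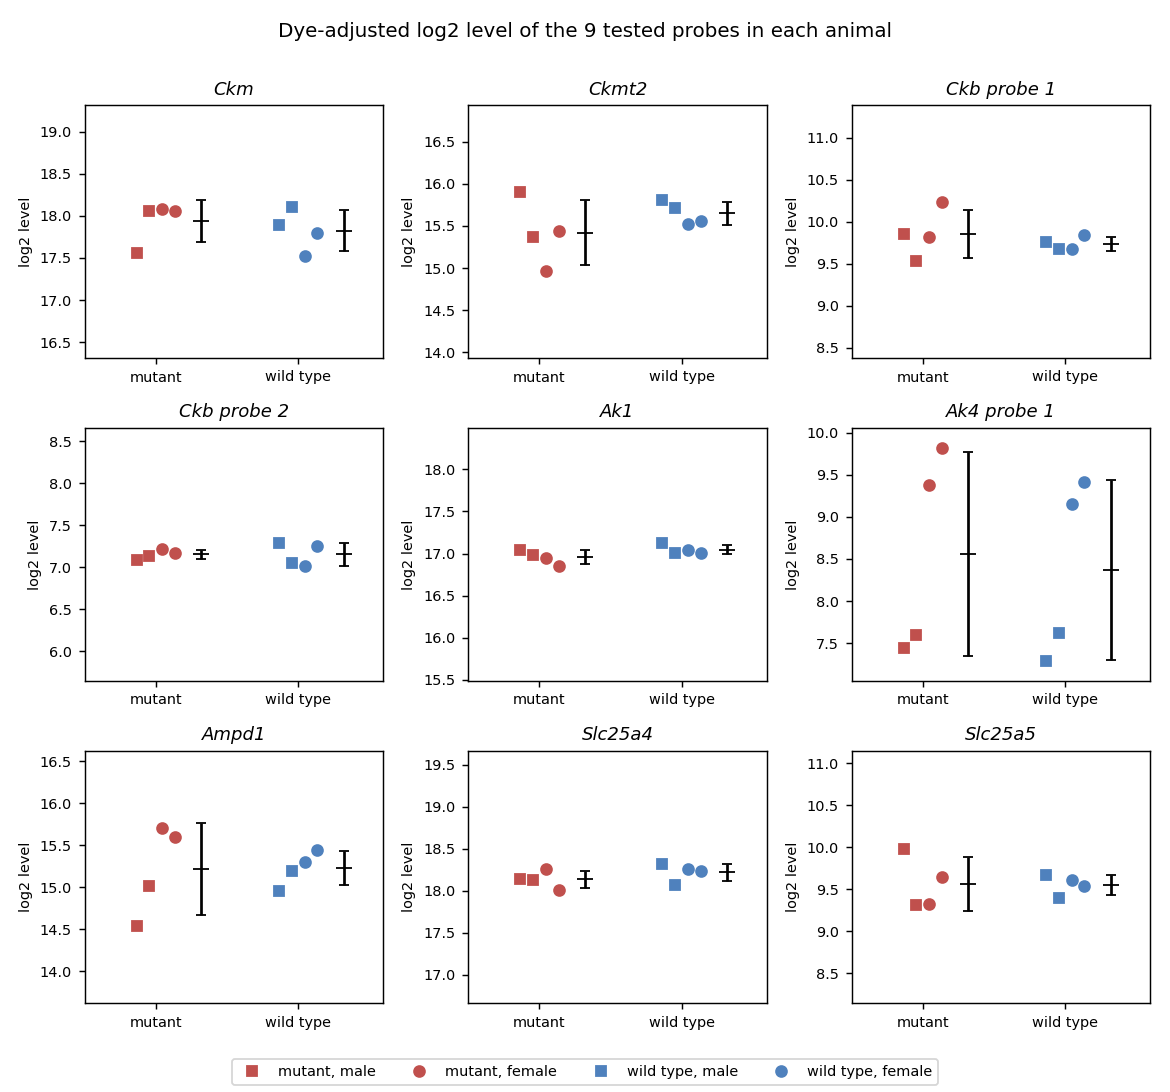
Dye-adjusted log2 level of each of the 9 tested probes in mutants (left, red) and wild types (right, blue), 1 point per animal, squares for males and circles for females, with the mean and SD of each group in black; every panel spans the same range. The groups overlap in every panel, and Ak4 splits by sex within both genotypes.

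Among the creatine kinases, the muscle form Ckm, which regenerates ATP beside the myofibrils, had levels of 17.56, 18.06, 18.08 and 18.06 in mutants 1 to 4, against 17.89, 18.10, 17.52 and 17.79 in wild types 1 to 4. In these dye-adjusted levels mutant 1 was the one low animal of its group. The groups overlapped, and 2 of 4 pairs were higher in the mutant, both of them female. The log2 ratio was 0.12 (SE 0.16, n = 4 pairs, limma adjusted p = 0.9998), with a 95% interval of 0.823-fold to 1.43-fold. It was 0.34 without pair 1 (limma unadjusted p = 0.0216, adjusted p = 0.462) and −0.10 without pair 3 (adjusted p = 0.733). Beside the Ckm pair ratios of −0.32, −0.04, 0.55 and 0.27, the 8 general skeletal muscle genes had medians of −0.51, −0.16, 0.32 and 0.04 in pairs 1 to 4, and 0 of 8 passed for genotype. Their mean level about each gene's own mean ran from −0.369 to 0.226 in mutants and from −0.0968 to 0.107 in wild types, and their part in the Ckm values was not tested.

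Ckmt2, the sarcomeric mitochondrial creatine kinase, gave the most negative ratio of the group. Its levels were 15.90, 15.37, 14.96 and 15.43 in mutants 1 to 4, against 15.80, 15.71, 15.52 and 15.56 in wild types 1 to 4. The wild types lay within a narrow band while the mutants spread on both sides of it, from the highest value of all in mutant 1 to the lowest in mutant 3. The log2 ratio was −0.23 (SE 0.13, n = 4 pairs, limma unadjusted p = 0.138, adjusted p = 0.9998), lower in 3 of 4 pairs, with an interval of 0.678-fold to 1.07-fold. It was −0.40 without pair 1 (limma unadjusted p = 0.00792, adjusted p = 0.374) and −0.07 without pair 3 (adjusted p = 0.831). Beside it, the 10 marker genes of slow and oxidative fibres had fitted ratios below 0 in 10 of 10 cases (median −1.09), and 0 of 10 passed. Their medians were −1.53, 1.04, −0.79 and −2.99 in pairs 1 to 4, where Ckmt2 had 0.10, −0.34, −0.56 and −0.12. Their mean level about each gene's own mean ran from −1.20 to 0.19 in mutants and from −0.743 to 2.43 in wild types, and their part in the Ckmt2 values was not tested.

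Ckb, the brain-type cytosolic creatine kinase, had 2 probes. The brighter averaged 9.86 ± 0.29 in mutants and 9.74 ± 0.08 in wild types (SD, n = 4 each), with a log2 ratio of 0.12 (SE 0.12). The other averaged 7.15 ± 0.06 in mutants and 7.15 ± 0.14 in wild types (SD, n = 4 each), with a ratio of 0.00 (SE 0.11). The first probe's highest value, 10.23, was that of mutant 4.

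Ak1, the cytosolic adenylate kinase of muscle, had the narrowest span over the 8 animals of the 8 genes, 0.27 log2 units. Levels were 17.05, 16.99, 16.94 and 16.86 in mutants 1 to 4, against 17.13, 17.01, 17.04 and 17.01 in wild types 1 to 4. Each mutant lay below its own wild type partner (4 of 4 pairs) although the groups overlapped. The size was small, with a log2 ratio of −0.09 (SE 0.09, limma adjusted p = 0.9998) and an interval of 0.805-fold to 1.10-fold. After normalization its mean Cy5 level over all 4 arrays exceeded that in Cy3 by 0.57 log2 units. Without the dye adjustment the pair ratios therefore alternated in sign, at 0.49, −0.60, 0.47 and −0.72.

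Ak4, an adenylate kinase of the mitochondrial matrix, spread far more between animals than between genotypes. Its tested probe averaged 8.56 ± 1.22 in mutants and 8.37 ± 1.07 in wild types (SD, n = 4 each). The log2 ratio within pairs was 0.19 (SE 0.11, limma unadjusted p = 0.141, adjusted p = 0.9998), higher in 3 of 4 pairs. The spread within genotypes followed sex and is described with the sex comparison. A further Ak4 probe, named by the same transcript record, was well above background in 0 of 8 animals and was not tested. Its levels ran from 6.23 in mutant 2 to 6.68 in mutant 3.

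Of the AMP deaminases, the muscle enzyme Ampd1 had levels of 14.54, 15.02, 15.71 and 15.60 in mutants 1 to 4, against 14.96, 15.20, 15.31 and 15.44 in wild types 1 to 4. Both male mutants lay below their partners and both female mutants above theirs, the same signs pair by pair as Ckm and the general muscle genes. The log2 ratio was −0.01 (SE 0.16, limma adjusted p = 0.9998). Ampd3, the isoform known from erythrocytes and also from muscle, was well above background in 2 of 8 animals, mutant 3 and wild type 2, and was not tested. Its levels ran from 6.38 to 6.84 in mutants and from 6.64 to 6.86 in wild types.

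Slc25a4, the translocator of heart and skeletal muscle, was spotted 10 times on each array, which gives a measure of technical error. Its levels were 18.14, 18.13, 18.26 and 18.01 in mutants 1 to 4, against 18.31, 18.07, 18.26 and 18.24 in wild types 1 to 4. The log2 ratio was −0.08 (SE 0.10, limma adjusted p = 0.9998), and 2 of 4 pairs were higher in the mutant, pair 2 by 0.06 and pair 3 by 0.008. Saturated spots, given below, enter the ratio and these signs. Within an array single spots had SDs of 0.23, 0.34, 0.03 and 0.08 in pairs 1 to 4. The SD between the dye-adjusted pair ratios was 0.14, but each such ratio is a mean over spots, so these SDs are not on the same scale. The Cy5 signal was saturated in 5 of 10 spots of mutant 1 and in 10 of 10 spots of wild type 2, and in none of the spots of pairs 3 and 4. The spots of pair 2 averaged −0.71 before dye adjustment and reached −0.28. In pair 1 that ratio lay between 0.35 and 0.54 in the 5 saturated spots and between 0.73 and 0.95 in the 3 other spots used. A saturated signal is only a lower bound on the animal's level, here for mutant 1 in part and for wild type 2 in full. After normalization Cy5 exceeded Cy3 by 0.65 log2 units in the male pairs, which hold these spots, and by 0.88 in the female pairs. The levels above use the mean over all pairs. With the difference of the female pairs alone, an alternative chosen after seeing the data, mutant 3 was 18.21 and wild type 3 was 18.31. Pair 3 was then lower in the mutant.

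**Figure D2:**
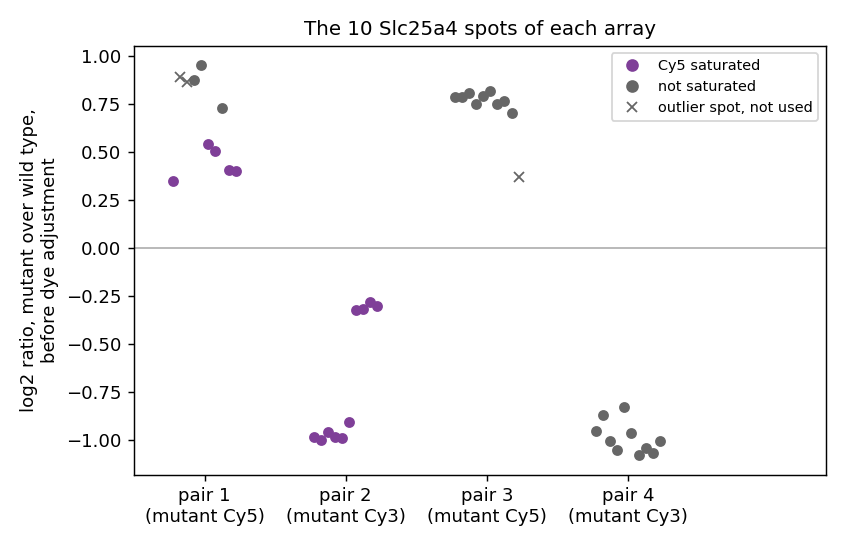
Log2 ratio, mutant over wild type, of each of the 10 Slc25a4 spots in each pair before dye adjustment, with spots saturated in Cy5 in purple and outlier spots as crosses. The sign follows the dye of the mutant, and the spots of pairs 3 and 4 lie closer together than those of pairs 1 and 2.

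Slc25a5, the translocator of proliferating and other tissues, on the X chromosome, averaged 9.57 ± 0.32 in mutants and 9.55 ± 0.12 in wild types (SD, n = 4 each). Mutant 1 was highest of all animals at 9.98 and mutant 2 lowest at 9.31, and the log2 ratio was 0.02 (SE 0.13). Over the 9 probes the 95% intervals reached no further than 0.678-fold (Ckmt2) on the lower and 1.43-fold (Ckm) on the higher side.

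**Figure D3:**
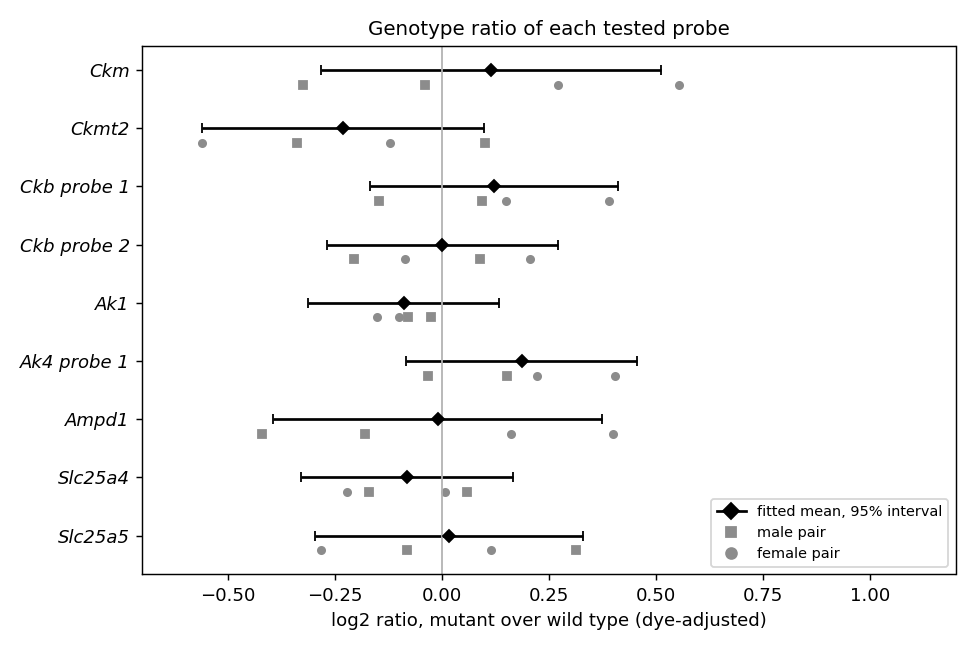
Fitted log2 ratio, mutant over wild type, of each tested probe with its 95% interval (black), and below it the dye-adjusted ratio of each pair (grey; squares male, circles female). Every interval includes 0, and the fitted values lie between −0.23 for Ckmt2 and 0.19 for Ak4.

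Ak4 was lower in males than in females, in mutants and in wild types. Its levels were 7.44 and 7.59 in male mutants and 7.29 and 7.63 in male wild types, against 9.38 and 9.82 in female mutants and 9.16 and 9.41 in female wild types. The highest male thus lay 1.53 log2 units below the lowest female, while mutant and wild type of a pair differed by at most 0.41. The log2 difference, male minus female, was −1.95 (SE 0.16, 95% interval −2.31 to −1.59, n = 4 animals each, limma adjusted p = 0.00214). That is a level 3.87-fold lower in males in this fit, and its size depended on the background correction, as given below. Ak4 was the 1 of 9 member probes that passed, where 1.75% of all 23098 probes did (0.688% lower and 1.07% higher in males), and it ranked 20 among them by p. Sexes did not overlap in 23.8% of all probes, so that lack of overlap alone is common in these data, and 23.4% had an unadjusted p under 0.05.

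The scanned signals showed the same split in each dye before any normalization. In Cy3 the Ak4 spot read 115.5 units in male mutant 2 and 90 in male wild type 1, against 516 in female mutant 4 and 313.5 in female wild type 3, over local backgrounds of 44 to 52. In Cy5 it read 281 in male mutant 1 and 440.5 in male wild type 2, against 1201 in female mutant 3 and 1220 in female wild type 4, over 135 to 145.5. Wild type 1 was the one animal whose Ak4 signal was not well above background, so the male mean holds 1 such value. With the scanner's own background-subtracted signals males were 7.27-fold lower, and with log2 values of the authors' deposited table they were 7.19-fold lower. With another background correction they were 5.62-fold lower. These log2 differences, −2.86, −2.85 and −2.49, lie outside the interval of the main fit, −2.31 to −1.59. That interval therefore does not cover the choice of background correction. The main fit used an offset of 50, and its part in the smaller difference was not tested. Without pair 4 the difference was −1.78 and the call ended (limma adjusted p = 0.0781). Males and females never shared an array, so the comparison rests on 2 arrays against 2, and a fit of the array means gave −1.95 (limma adjusted p = 0.0190). An exact permutation test over the 4 arrays has 6 regroupings and cannot go below p = 0.333.

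**Figure D4:**
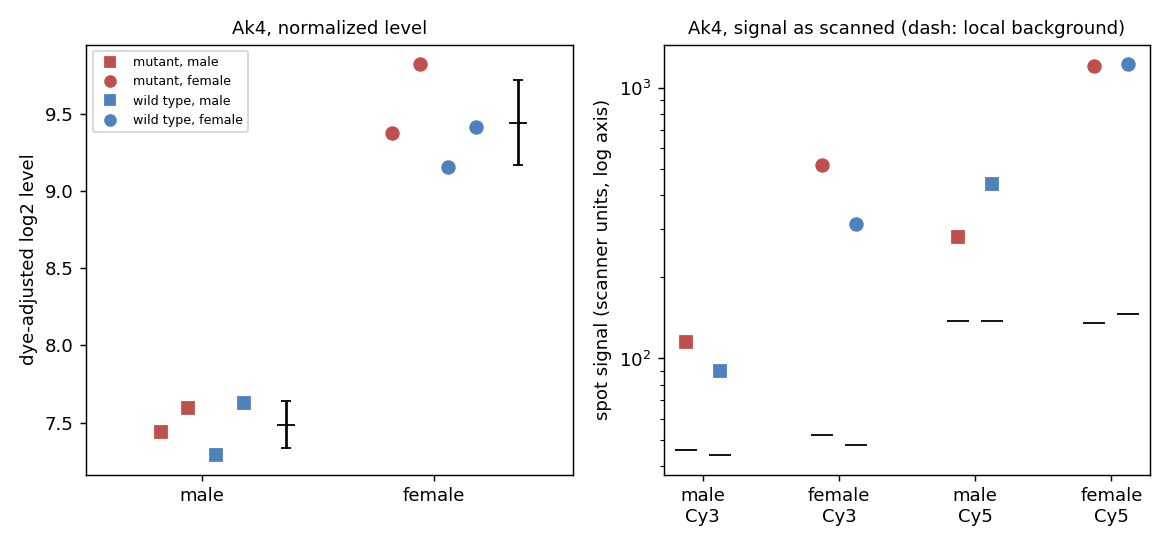
Ak4 in males (left) and females (right). The left plot gives the dye-adjusted log2 level of each animal with the mean and SD of each sex, and the right plot the spot signal as scanned, by dye, on a log axis with the local background as dashes; in both, all 4 females lie above the males measured in the same way.

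For the Ak4 genotype ratio, the 95% interval of the difference between the sexes included 0. The ratio averaged 0.06 in male pairs and 0.31 in female pairs, an interaction of −0.25 (SE 0.23, 95% interval −0.83 to 0.32, limma unadjusted p = 0.321, adjusted p = 1). Over all probes 0% passed for the interaction and 2.19% had an unadjusted p under 0.05. Among members the largest interactions were those of Ckm (−0.18 in male pairs, 0.41 in female pairs, limma unadjusted p = 0.0571, adjusted p = 1) and Ampd1 (−0.30 in male pairs, 0.28 in female pairs, limma unadjusted p = 0.0557, adjusted p = 1).

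Ampd1 was the other member whose sexes did not overlap. Males ran from 14.54 to 15.20 and females from 15.31 to 15.71, a log2 difference of −0.58 (SE 0.19) that missed the threshold (limma adjusted p = 0.122). Without pair 2 it was −0.77 and passed (limma adjusted p = 0.0372), as did 2567 of all 23098 probes, against 405 in the full fit. Ckmt2 gave 0.33 (SE 0.17, adjusted p = 0.295 in limma), with males overlapping females. The other 6 probes had differences between −0.19 and 0.08, and none passed. Among markers of fibre types, muscle, blood, connective tissue, fat, endothelium, macrophages and nerve, 0 of 64 tested genes passed in the sex comparison and 0 of 64 in the genotype comparison. Endothelial genes ran from 0.02 to 0.15 in males and from −0.25 to 0.01 in females (mean of 5 genes about their own means), the 1 list of 9 whose sexes did not overlap. Among single probes 23.8% had sexes that did not overlap. The endothelial mean was higher in males, where Ak4 was lower, and its part in the Ak4 values was not tested.

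**Figure D5:**
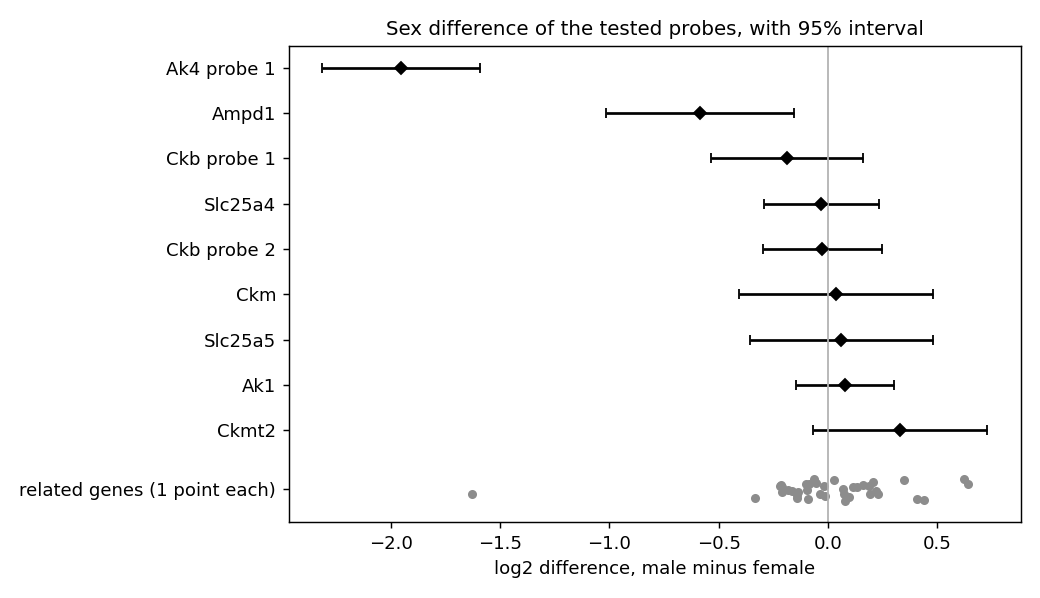
Log2 difference, male minus female, of each tested probe with its 95% interval, and below them the same difference for 38 related genes (grey, 1 point each, spread vertically for legibility). Ak4 lies at −1.95, and the related gene farthest to the left is Slc25a25 at −1.63.

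The genes most like a member were sought for those whose level spanned more than 1 log2 unit, Ak4 (2.53) and Ampd1 (1.17), over the 8 animals and 11892 other named genes. For Ak4 they were Tmem266 (Pearson r = 0.997, Spearman rho = 0.952), Angpt1, encoding a ligand of the endothelial receptor Tek (0.992, 0.905), and Rnf26, a RING finger protein (0.990, 0.976). All 3 were lower in males, by 0.71, 0.58 and 0.56 log2 units. They were picked for likeness to Ak4, which splits by sex, so this direction was fixed by the choice. These differences and the correlations are therefore given with no p. For Ampd1 they were Rbbp5, a subunit of histone methyltransferase complexes (0.993, 1.00), Ccdc144b (0.991, 1.00) and Ctso, a cathepsin (0.990, 0.976). Being the highest of many, such values describe 8 animals and no more.

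Related genes from 6 lists were read from the same fits. Of 45 genes 38 were tested, and 0 passed for genotype (17 higher, 21 lower, median −0.0157). An unadjusted p under 0.05 was found for 1 gene, where 3.35% of all 23098 probes had one. That gene was Slc25a25, a calcium-regulated carrier of ATP-Mg and phosphate, at −0.78 (SE 0.24, limma unadjusted p = 0.0181, adjusted p = 1, lower in 4 of 4 pairs). In pair 1 the levels were nearly equal, 10.66 in the mutant and 10.67 in the wild type. Its second probe gave −0.74, with mutant 1 at 9.23 slightly above wild type 1 at 9.21. With Slc25a3, the phosphate carrier (−0.21, SE 0.12; second probe −0.11), it had the smallest p of 7 genes of mitochondrial phosphate and nucleotide exchange, of which 6 were lower.

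The other lists held smaller values. Creatine synthesis and transport had 4 tested genes, with Ckmt1, the ubiquitous mitochondrial creatine kinase, at 0.11 (SE 0.10) and Gamt, which makes creatine, at −0.08 (SE 0.10; second probe −0.17). The 3 tested adenylate kinases beyond the members included Ak6 at 0.04 and Ak3, which uses GTP, at −0.02. Of 12 genes of the purine nucleotide cycle and of salvage and breakdown, 5 were higher and 7 lower, with adenosine deaminase Ada at 0.17 (SE 0.12) and the nucleotidase Nt5c at 0.13 (SE 0.09). The nucleoside diphosphate kinases (5 genes) were led by Nme1 at 0.17 (SE 0.11, higher in 4 of 4 pairs) and Nme6 at 0.11. Second probes gave 0.29 for Nme1 (SE 0.12, limma unadjusted p = 0.0506) and 0.05 for Nme6. Subunits of AMP-activated kinase, the sensor of AMP, numbered 7 and were led by Prkaa1 at 0.09 and Prkab1 at 0.05.

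In the sex comparison 1 of the 38 related genes passed, where 1.75% of all 23098 probes did. It was again Slc25a25, named here after its values were seen. Its levels were 10.66 and 10.11 in male mutants and 10.67 and 10.87 in male wild types, against 11.52 and 11.70 in female mutants and 13.08 and 12.51 in female wild types. The sexes did not overlap, as in 23.8% of all probes, and the log2 difference, male minus female, was −1.63 (SE 0.26, limma adjusted p = 0.0292). Its second probe gave −1.90 (limma adjusted p = 0.0168). The call of the first probe ended without pair 4 (adjusted p = 0.438), with no normalization between arrays (0.251), with the authors' deposited log2 table (0.0740) and with another background correction (0.0576), all in limma.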

How the data were processed

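Labelled cRNA from 200 ng of total RNA per animal was hybridised on 4 two-colour arrays. The deposited scanner files hold spot and background intensity values (median signals, not background-subtracted) and processed intensity values, written by Agilent Feature Extraction 10.7.3.1 per the file headers. Other deposited values per spot are flags of 0 or 1 for spots well above background, saturated or outlying. The authors' deposited table holds log2 values centred on a median of 0 per probe, with medians per animal from −0.018 to 0.034. Its differences within pairs had slopes of 0.971 to 1.03 and Pearson r of 0.992 to 0.998 on the scanner's processed log2 ratios, over 23098 probes, which gives scale and direction. How it was normalized stays unknown.

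Background was corrected with normexp (offset 50), ratios were normalized by loess with control and outlier spots at weight 0, and spots of a probe were averaged. Saturated spots were kept. The files pair probes with accessions only. Of 55681 probes, 27656 had 1 symbol through RefSeq accessions (GRCm38.p6 table, while the headers name mm9), and the others stayed unnamed. Log2 ratios were fitted in limma 3.58.1 (R 4.3.3) with a dye term and Benjamini-Hochberg adjustment over 23098 probes; a sex interaction was added for the sex by genotype comparison. For sex, separate channels were fitted with lmscFit after normalization between arrays (Aquantile, intraspot correlation 0.174, with genotype and dye as terms). SE and intervals are those of the moderated fits. The brightest probe stood for a gene. The number of arrays limits precision.

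The array is the pair block, so the pairing is physical. Deviations of paired animals from their group means correlated at 0.64, 0.30, 0.06 and 0.63 over probes. The labels number individual animals. Members and lists were chosen with earlier results of these data known. From each list of related genes, genes that passed or else the 2 with the smallest p were named, and for members spanning over 1 log2 unit the 3 genes with the highest Pearson correlation.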

Additional observations from a re-analysis of the deposited data

Results flagged for a closer look

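Among 36 groups of 4 animals (9 probes, by genotype and by sex), 2 held an animal whose gap to the nearest of the others was too large a share of the group's range by Dixon's 95% critical value; chance flags about 1 in 20 groups. Ckm in mutant 1 was 17.56, against 18.06 to 18.08 in the other 3 mutants (ratio 0.962). These levels use a dye difference averaged over all pairs, and an alternative by sex was not run for Ckm. Before dye adjustment mutants 1 to 4 had 17.77, 17.85, 18.29 and 17.86, in Cy5, Cy3, Cy5 and Cy3. Slc25a4 in mutant 4 was 18.01 among females, where the others lay between 18.24 and 18.26 (ratio 0.891). That level uses a dye difference averaged over all pairs, which include the saturated spots of pairs 1 and 2. With the difference of the female pairs alone, an alternative chosen after seeing the data, mutant 4 was 18.07 and the others lay between 18.18 and 18.31 (ratio 0.444), short of the critical value.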

How the results depend on the processing

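No member probe passed for genotype under any of 13 alternatives (0 of 9 in the full fit), and Ckmt2, Ak1, Ak4 and Slc25a4 kept their sign in every one that gave a value. Their sizes moved: Ckmt2 (−0.231 in the full fit) ran from −0.396 without pair 1 to −0.0654 without pair 3, Ak1 (−0.0893) from −0.187 with median centring to −0.0577 without pair 4, Ak4 (0.186) from 0.0768 without pair 4 to 0.296 without pair 2, and Slc25a4 (−0.0816) from −0.182 with median centring to −0.0114 without pair 4. The other ratios changed sign under some: leaving out a pair gave Ckm −0.104 (without pair 3) to 0.335 where the full fit had 0.116, Ckb −0.0126 (without pair 4) to 0.255 where it had 0.121, Ampd1 −0.215 to 0.196 (above 0 without pair 1 or 2) where it had −0.00951, and Slc25a5 −0.133 to 0.165 (below 0 without pair 1 or 4) where it had 0.0159. Slc25a5 was also −0.0636 with scanner processed signals, −0.0227 with the authors' deposited log2 table and −0.0557 with median centring. Median centring, used instead of loess, put the median ratio of members at −0.0887. The count over all probes for genotype (0 in the full fit) was 23 with median centring, 5 without the filter on dim probes, 2 without the dye term, 4 on separate channels, 3 with no replicate block, and 0 to 245 when a pair was left out (245 without pair 3, 5 without pair 1). For sex by genotype (0 in the full fit) it was 22 with median centring and 38 with no filter.

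The sex alternatives were chosen after seeing the data. The count for sex (405 in the full fit) was 106 with array means, 1013 with no replicate block, 218 with the deposited log2 table, 970 with median centring, 250 with half-minimum background subtraction, 47 with no normalization between arrays, and 18 to 2567 when a pair was left out (227 without pair 1, 2567 without pair 2, 46 without pair 3, 18 without pair 4); the pair block changed no call of a member. Member probes called for sex (1 in the full fit) numbered 0 without pair 4 and 2 without pair 2, where Ampd1 passed (−0.765, limma adjusted p = 0.0372). Ak4 passed under 11 of 12 alternatives, with differences from −2.86 to −1.78. Sex differences that changed sign were Ckm (−0.14 to 0.215 when a pair was left out, below 0 without pair 2 or 3), Slc25a4 (0.121 with no normalization between arrays, and −0.0971 to 0.037 when a pair was left out, above 0 without pair 2 or 3) and Slc25a5 (−0.178 to 0.298, below 0 without pair 1 or 3). The cause of these changes was not tested. Without pair 1, 3 or 4 no intraspot correlation could be estimated and that of the full fit was used. Leaving out saturated Slc25a4 spots was not run, because pair 2 kept 0 unsaturated spots. Signals near background limit Ak4 in males, its second probe and Ampd3.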
